A study of Mesocricetus auratus with 8 samples.

Results

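The SIX-family and EYA genes examined here were Six2, Six4, Six5, Eya1, Eya2, Eya3 and Eya4, chosen by gene family name, and all 7 were found among the 17590 genes with values in the deposited table. They were followed in primary satellite cells (SCs) of wild-type Syrian hamsters (Slc:Syrian), isolated from hindlimb muscles of sexually mature males by collagenase digestion and preplating. The 4 control libraries came from SCs kept at 37°C in growth medium to day 3, the last 24 h of it with HEPES, and the 4 cold libraries from SCs cultured in the same way and then moved to 4°C for a further 24 h without a change of medium. Cold libraries were therefore collected 24 h later than controls, and the effect of temperature cannot be told apart from that of the extra day. Sample titles place every control on day 3, whereas by the treatment labels control replicates 1 to 4 had 3, 4, 5 and 6 days of culture at 37°C. Each group numbers its libraries 1 to 4, and the study calls them biological replicates. No source used here says whether a number marks 1 animal or 1 preparation of cells.

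SIX-family proteins are homeodomain transcription factors, and EYA proteins are their co-activators, which bind no DNA of their own and also carry a phosphatase domain. SIX-family proteins recognise MEF3 elements in the regulatory DNA of muscle genes, among them the gene of the differentiation factor myogenin, and recruit EYA proteins there or, at other genes, Groucho (TLE) co-repressors. Together with PAX and DACH proteins they form a network that acts upstream of the myogenic regulatory factors in embryonic muscle and remains active in SCs and their descendants.

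Depth was between 16530747 and 18533801 expected read counts per library, and the counts of the 7 genes were whole numbers in all 8 libraries. The libraries did not fall apart by temperature first. The first principal component, with 57.0% of the variance, set replicates 1 and 2 of both groups apart from replicates 3 and 4, and the second, with 17.8%, parted the cold libraries from the controls. Libraries that shared a number deviated from their group means together (correlations across genes of 0.63 to 0.68), and so did libraries of different numbers within the same set (0.43 to 0.63), which for replicates 1 and 2 shows the set rather than the number. A fit blocked on the replicate number stands beside the unblocked one. Defining myogenic markers were present, with means in control libraries of 614 TPM (transcript abundance scaled to length and to the library total) for Myod1, 830 TPM for Des and 12.7 TPM for Pax7. Of the 10 SC and myoblast markers, 0 passed an adjusted p of 0.05 in edgeR without the block (0.0720% of all genes tested did), and with it (5.33%) 3 were lower in the cold, namely Cdh15 (log2 fold change −0.32, adjusted p = 1.19e-05), Itga7 (−0.29, adjusted p = 1.14e-05) and Myod1 (−0.13, adjusted p = 0.0200). Their part in the members' values was not tested. Of 8 fibroblast and mesenchymal markers with values, all were also expressed, and their summed level was 1229 to 1763 TPM in control and 1212 to 1714 TPM in cold libraries. It was 1212 to 1304 TPM in replicates 1 and 2 and 1493 to 1763 TPM in replicates 3 and 4. Thy1 made up the largest part of the sum, with means of 568 TPM in control and 579 TPM in the cold. By immunostaining, the study found the large majority of isolated hamster cells positive for Pax7 or MyoD, so the sum is no measure of cell share. The 5 haematopoietic markers summed to 40.9 to 49.5 TPM in replicates 1 and 2 and to 75.3 to 105 TPM in replicates 3 and 4, and were made up of Cd68, Cd14 and Csf1r (34.1, 27.7 and 3.16 TPM in control, 37.7, 30.9 and 3.42 TPM in the cold), while the defining leukocyte genes Ptprc and Adgre1 were at or near 0. Endothelial, Schwann cell and adipocyte markers summed to at most 4.14, 2.77 and 0.51 TPM, and the 5 smooth muscle and pericyte markers to between 64.5 and 92.7 TPM.

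None of the 7 genes passed an adjusted p of 0.05 for cold against control. This held in edgeR's quasi-likelihood test without a block, where 0.0720% of the 12506 genes tested passed, and when the replicate number was added as a block, where 5.33% passed. DESeq2 also called 0 of the 7, both without the block, where 1.14% of all genes passed, and with it, where 2.85% passed. At an unadjusted p under 0.05, the unblocked edgeR test and DESeq2 each had 0 of the 7, against 6.70% and 5.90% of all genes tested. With the replicate block edgeR had 2 of the 7, Eya1 and Eya4, against 18.2% of all genes tested, and DESeq2 with the block also had 2, against 9.36%. Control and cold TPM overlapped in all 7 genes, whereas they did not overlap in 4.68% of the genes tested. Log2 fold changes lay between −0.51 and 0.25, with 4 genes lower and 3 higher and a median of −0.04, beside a median of 0.01 over all genes tested. In whole cultures, fewer cells of a type and less RNA per cell cannot be told apart.

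**Figure D1:**
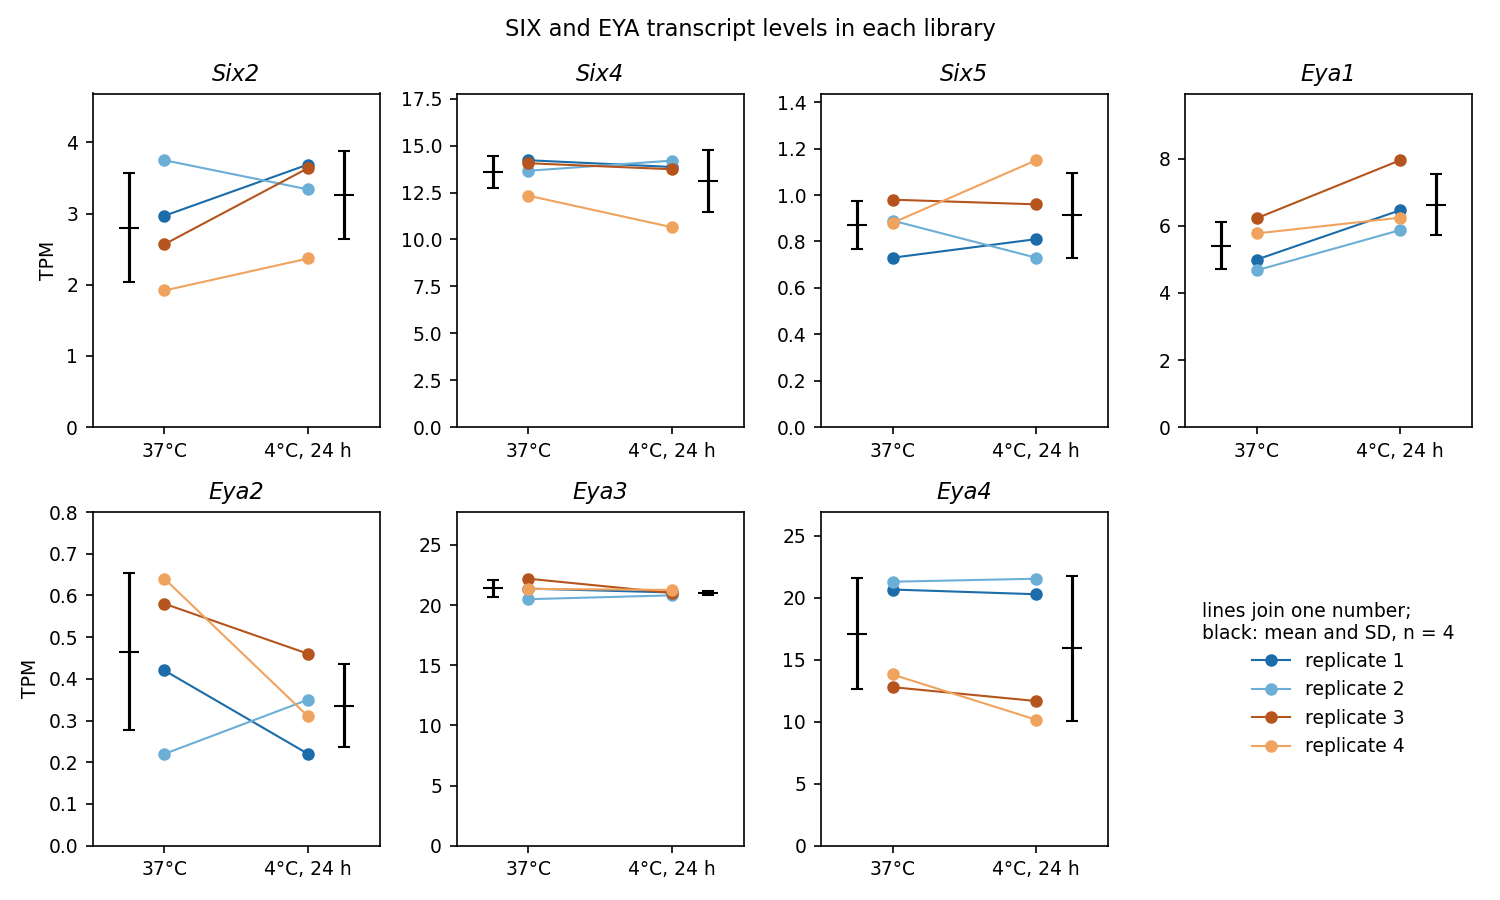
TPM of each SIX-family and EYA gene in the 4 control libraries (37°C) and the 4 cold libraries (4°C, 24 h), with lines joining libraries of the same replicate number and black bars giving the mean and SD. Control and cold values overlap in every panel, only Eya1 has 4 of 4 lines rising, and Eya4 separates replicates 1 and 2 (blue) from replicates 3 and 4 (orange).

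The precision of these comparisons differed between genes. In the unblocked fit, the 95% interval of the log2 fold change lay within −1 and 1, that is within a doubling and a halving, for 6 of the 7 genes. Eya2 was the exception. Within −0.5 and 0.5 the count was 2 of 7 in the unblocked fit, Six4 and Eya3, and 5 of 7 with the replicate block.

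**Figure D2:**
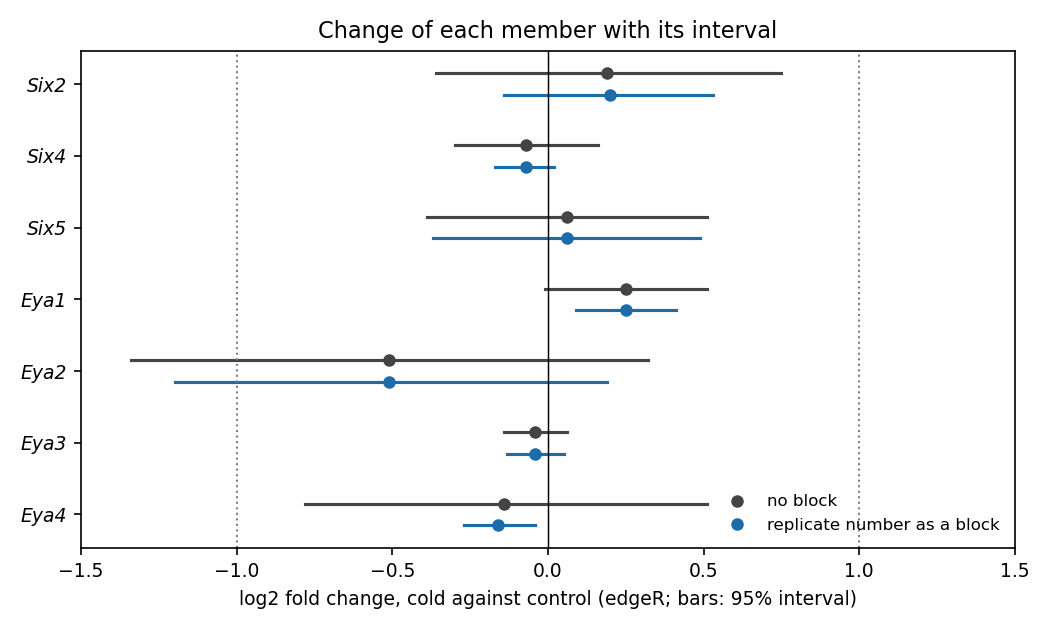
Log2 fold change of each gene in the cold against control (points) with its 95% interval (bars) from edgeR, without a block (grey) and with the replicate number as a block (blue), and dotted lines at −1 and 1. The intervals of Eya1 and Eya4 lie to one side of 0 in the blocked fit alone, and Eya2 has the widest interval.

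Among the DNA-binding members, Six4 was the most abundant. SIX4 binds MEF3 sites in muscle enhancers, and its level of 13.3 TPM over all 8 libraries was above that of 45.3% of the genes tested. In control replicates 1 to 4 it was at 14.2, 13.7, 14.1 and 12.3 TPM, and in the cold at 13.9, 14.2, 13.7 and 10.7 TPM. Replicate 4 was the lowest library of both groups, and the other 6 libraries lay within 13.7 to 14.2 TPM. Means of 13.6 ± 0.858 TPM in control and 13.1 ± 1.65 TPM in the cold (SD, n = 4 each) differed by less than the SD of either group (exact two-sided permutation test, p = 0.686). The log2 fold change was −0.07 (standard error 0.10, 95% interval −0.30 to 0.16, adjusted p = 0.999 with edgeR), and without cold replicate 4 it turned to 0.02.

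Six2 encodes a homeodomain factor best known for keeping kidney progenitors undifferentiated. It was at 2.97, 3.75, 2.57 and 1.92 TPM in control replicates 1 to 4 and at 3.69, 3.34, 3.64 and 2.37 TPM in the cold, on counts of 33 to 66 reads per library. Cold was higher in 3 of 4 pairs of the same number, and replicate 4 again held the lowest value of both groups. The means of 2.80 ± 0.766 and 3.26 ± 0.613 TPM (SD, n = 4 each) overlapped widely (exact two-sided permutation test, p = 0.371). With edgeR the log2 fold change was 0.19 (95% interval −0.36 to 0.75, adjusted p = 0.999). It was 0.01 in replicates 1 and 2 alone and 0.43 in replicates 3 and 4 alone, where the interval of −0.24 to 1.11 still held 0.

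Six5, whose human counterpart lies beside the myotonic dystrophy gene DMPK, was the least expressed SIX-family gene examined, with 22 to 35 reads per library. Its TPM values were 0.73, 0.89, 0.98 and 0.88 in control replicates 1 to 4 and 0.81, 0.73, 0.96 and 1.15 in the cold. Neither group stood above the other, and cold was higher in 2 of 4 pairs. The count of 22 in control replicate 1 has an exact 95% Poisson interval of 13.8 to 33.3, which covers counting error only and takes in all but the highest of the counts. Variance over counting variance was 0.311 among control and 1.20 among cold libraries, where counting error alone gives a value near 1. The log2 fold change was 0.06 (95% interval −0.39 to 0.51, adjusted p = 0.999 with edgeR), and its sign turned when control replicate 1 (−0.01) or cold replicate 4 (−0.07) was left out. Dmpk itself, a kinase gene of muscle, had means of 75.6 ± 12.6 TPM at 37°C and 57.9 ± 1.69 TPM at 4°C (SD, n = 4 each), and its log2 fold change was −0.44 (adjusted p = 0.463 with edgeR, or 0.000634 with the replicate block).

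Of the co-activators, Eya3 was the most abundant and the steadiest. EYA3 is a widely expressed member of the family, also studied for its phosphatase in DNA repair. Its levels were 21.4, 20.5, 22.2 and 21.4 TPM in control replicates 1 to 4 and 21.1, 20.8, 21.0 and 21.3 TPM in the cold. All cold values lay inside the range of the controls. The means were 21.4 ± 0.694 and 21.0 ± 0.184 TPM (SD, n = 4 each; exact two-sided permutation test, p = 0.457). Its log2 fold change of −0.04 had the narrowest interval of the 7 genes, −0.14 to 0.06 (edgeR, adjusted p = 0.999), which corresponds to a fold of 0.907 to 1.04. Variance over counting variance was 1.19 in the control and 0.161 in the cold group, on 1244 to 1336 reads per library, a yardstick that covers counting error only.

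Eya4, mutated in inherited deafness and in dilated cardiomyopathy, was close to Eya3 in mean level (16.5 against 21.2 TPM over all libraries) but varied far more. It was at 20.7 and 21.3 TPM in control replicates 1 and 2 and at 12.8 and 13.8 TPM in control replicates 3 and 4. The cold libraries had 20.3 and 21.5 TPM in replicates 1 and 2 and 11.7 and 10.2 TPM in replicates 3 and 4. The pair of replicate sets did not overlap, with a mean in replicates 3 and 4 of 0.578 times that in replicates 1 and 2. The sets were recognised from the expression values themselves, so this is a description without a test, and 32.6% of the genes tested did not overlap between them either. Eya4 was the only one of the 7 members for which the sets were apart. Myog, the myogenin gene, was parted in the same direction (564 to 1016 TPM in replicates 1 and 2, 292 to 480 TPM in replicates 3 and 4). Myod1 (604 to 693 and 424 to 634 TPM) and Des (735 to 924 and 724 to 798 TPM) overlapped between the sets. Pax7 also overlapped and leaned the other way (10.8 to 12.9 and 12.4 to 16.1 TPM, ratio of means 1.18). Summed fibroblast and haematopoietic markers were parted in the opposite direction to Eya4, as given above. The part of these genes and markers in the level of Eya4 was not tested.

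Against this spread the difference of Eya4 between control and cold was small. The means were 17.1 ± 4.46 and 15.9 ± 5.82 TPM (SD, n = 4 each; exact two-sided permutation test, p = 0.571). The log2 fold change was −0.14 (standard error 0.29, 95% interval −0.78 to 0.51, adjusted p = 0.999 with edgeR). With the replicate block it was −0.16 (standard error 0.05, interval −0.27 to −0.04), with an unadjusted p of 0.00984 and an adjusted p of 0.114 from edgeR. Within replicates 1 and 2 the pairs went in opposite directions, by −0.38 and 0.24 TPM, and edgeR gave −0.07 on the log2 scale (interval −0.18 to 0.04). In replicates 3 and 4 both pairs were lower in the cold, by −1.12 and −3.65 TPM, and edgeR gave −0.27 (interval −0.46 to −0.08, adjusted p = 0.590). Whether the cold difference itself differed between the sets was not tested. Without cold replicate 4 the unblocked value turned to 0.03.

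Eya1, which is mutated in branchio-oto-renal syndrome and acts with SIX-family proteins in embryonic muscle progenitors, was the 1 member with cold above control in 4 of 4 pairs, a pattern that 12.8% of the genes tested showed. It was at 4.99, 4.67, 6.22 and 5.77 TPM in control replicates 1 to 4 and at 6.46, 5.87, 7.95 and 6.24 TPM in the cold. The groups overlapped at a single point, since control replicate 3 (6.22 TPM) was above cold replicate 2 (5.87 TPM), and the other 3 controls were below every cold library. The means were 5.41 ± 0.709 and 6.63 ± 0.913 TPM (SD, n = 4 each). The exact two-sided permutation test gave p = 0.0571, where 0.0286 is the smallest p that 4 libraries against 4 allow. Eya1 had a log2 fold change of 0.25 (standard error 0.12, 95% interval −0.01 to 0.51) and an adjusted p of 0.785 with edgeR. With the replicate block the value was 0.25 (standard error 0.07, interval 0.09 to 0.41), with an unadjusted p of 0.00367 and an adjusted p of 0.0623 from edgeR, or 0.499 from DESeq2 with the block. The size was alike in replicates 1 and 2 alone (0.28) and in replicates 3 and 4 alone (0.22). In a fit chosen after seeing the data, leaving out both libraries numbered 4 in the blocked edgeR test took the adjusted p to 0.0490, where 7.44% of all genes tested passed. Leaving out the pairs numbered 1, 2 or 3 instead gave adjusted p-values of 0.257, 0.250 and 0.199 (edgeR).

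Eya2, which in embryos is expressed in myogenic cells, was barely detected. Its TPM values were 0.42, 0.22, 0.58 and 0.64 in control replicates 1 to 4 and 0.22, 0.35, 0.46 and 0.31 in the cold. They rest on 6 to 17 reads per library, and a count of 6 has an exact 95% Poisson interval of 2.20 to 13.1. The means were 0.465 ± 0.188 and 0.335 ± 0.0995 TPM (SD, n = 4 each; exact two-sided permutation test, p = 0.314). The log2 fold change was −0.51, with the widest interval of the members, −1.34 to 0.32 (adjusted p = 0.966 with edgeR). Its size depended on the fit and ran from −0.77 to −0.13 over 22 alternatives, the last from limma with a pseudocount of 1 TPM.

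Because TPM is scaled to length, the EYA genes can be set against one another within a library. Eya3 and Eya4 together made up most of the EYA transcripts in each library. In control replicates 1 and 2, Eya3 held 45.1% and 43.9% of summed EYA TPM and Eya4 43.5% and 45.6%. In control replicates 3 and 4, Eya3 held 53.1% and 51.4% and Eya4 30.6% and 33.2%. In cold replicates 1 to 4, Eya3 held 43.9%, 42.9%, 51.1% and 56.0% and Eya4 42.2%, 44.3%, 28.4% and 26.7%. Eya3 and Eya4 were thus near parity in replicates 1 and 2, with Eya4 at 0.966 and 1.04 times Eya3 in control and 0.963 and 1.03 times in cold libraries. In replicates 3 and 4, Eya4 was at 0.576 and 0.646 times Eya3 in control and at 0.555 and 0.477 times in cold libraries. The share of Eya1 was 10.5%, 10.0%, 14.9% and 13.9% in control replicates 1 to 4 and 13.5%, 12.1%, 19.4% and 16.4% in the cold libraries of the same numbers. It was higher in the cold in 4 of 4 pairs, while the groups overlapped. Eya2 held at most 1.54%. Summed EYA TPM was 41.6 to 47.4 in control and 38.0 to 48.5 in cold libraries. By mean level over the 8 libraries, the order of the members was Eya3, Eya4, Six4, Eya1, Six2, Six5 and Eya2, and the neighbours Eya3 and Eya4, and Eya4 and Six4, overlapped in range.

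**Figure D3:**
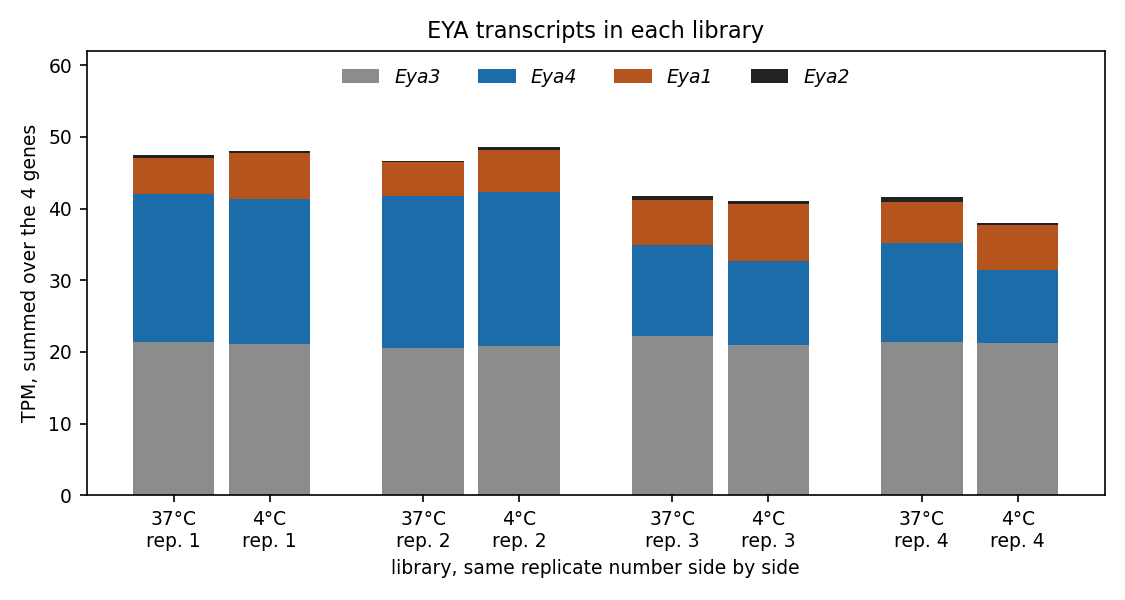
Stacked TPM of the 4 EYA genes in each library, with control (37°C) and cold (4°C) libraries of one replicate number side by side. Eya3 (grey) is level at 20.5 to 22.2 TPM, and Eya4 (blue) is lower in replicates 3 and 4 than in replicates 1 and 2 at both temperatures.

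The genes whose levels ran most like those of a member over the 8 libraries were sought among 10487 genes with a mean of at least 1 TPM, by Pearson's r of log2(TPM + 0.1). These r values are a description, since the 8 points share the parting of the replicate numbers and the highest of many r is large by selection. For Six4 the closest genes were Igfbp5 (r = 0.983), Fgfr4 (0.966) and Tmem64 (0.957). Six4 stood apart only in the libraries numbered 4 (12.3 TPM in control, 10.7 TPM in the cold), so its r values rest largely on those. Igfbp5, an IGF-binding protein, is on the list of genes with reported SIX-family control, and its mean level was 589 TPM at 37°C and 565 TPM at 4°C. For Eya4 they were Ankrd44 (0.997), Dner (0.995), which encodes a Notch ligand, and Homer1 (0.993), a scaffold gene. All 3 had lower means in replicates 3 and 4, for example 4.83 TPM for Dner in replicates 1 and 2 and 2.50 TPM in replicates 3 and 4. For Eya1 they were Mad2l1 (0.995) of the spindle checkpoint, Wee1 (0.982), a kinase that holds back mitosis, and Rfc2 (0.972), a clamp loader subunit of DNA replication. Mad2l1 had means of 72.3 TPM at 37°C and 79.0 TPM at 4°C, a log2 fold change of 0.11 with the replicate block (adjusted p = 0.158, edgeR). For Six2 the closest genes were Adra1b (0.951), Pmepa1 (0.943) and Stk19 (0.943), and for Eya3 Agrn (0.955), Smim27 (0.947) and Adprm (0.934).

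The wider network was described with gene lists written from general knowledge. Among listed partners of SIX-family and EYA proteins, 7 of 9 genes with values were tested, 5 lower and 2 higher, with a median log2 fold change of −0.07, and none passed 0.05 in the unblocked edgeR test or with the replicate block. Dach1 and Dach2 were at mean levels under 0.1 TPM. Pax7, the marker of the SC lineage, was at 12.7 and 13.5 TPM in control and cold libraries and had a log2 fold change of 0.08. The Groucho family genes Tle5 (193 and 185 TPM), whose short product antagonises the full-length co-repressors, Tle4 (4.72 and 4.16 TPM) and Tle2 (1.68 and 1.58 TPM) had log2 fold changes of −0.07, −0.20 and −0.12, and that of Tle4 had an adjusted p of 0.708 without and 0.200 with the replicate block (edgeR). The other Groucho co-repressor genes, Tle3 (33.6 and 33.4 TPM) and Tle1 (5.31 and 5.44 TPM), named after their values were seen, had −0.03 and 0.01. Of 4 tested genes around the EYA phosphatase and the DNA damage response, 3 were higher and 1 lower, and none passed in either fit. Their log2 fold changes were 0.12 for Baz1b, 0.12 for Mdc1, −0.09 for Apbb1 and 0.05 for Abl1.

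The myogenic bHLH and MEF2 factors act with or after SIX-family proteins. None of the 7 passed 0.05 in the unblocked edgeR test, and with the replicate block 6 of 7 passed, against 5.33% of all genes tested, all 6 lower in the cold. The median of the 7 log2 fold changes was −0.18, beside 0.01 over all genes tested. Mef2c fell from 23.2 ± 10.3 to 8.44 ± 2.18 TPM (log2 fold change −1.43, adjusted p = 3.43e-09 with the block, edgeR), Myf6 from 15.1 ± 5.40 to 8.51 ± 1.21 TPM (−0.83, adjusted p = 0.000614) and Myog from 738 ± 316 to 449 ± 172 TPM (−0.71, adjusted p = 2.96e-09), each as SD with n = 4 libraries a group. Mef2d was at 44.7 and 39.8 TPM (−0.18, adjusted p = 0.0399). Without the block, the adjusted p-values of Mef2c, Myf6, Myog and Mef2d were 0.224, 0.462, 0.824 and 0.962.

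Among genes with reported MEF3 sites or reported SIX-family or EYA control, which share 4 genes with the preceding list, 17 of 19 were tested. Of these, 0 passed in the unblocked edgeR test, and with the replicate block 8 were lower and 1 was higher, against 5.33% of all genes tested. The median log2 fold change was −0.14 without and −0.13 with the block. Besides Myog and Myf6, the largest differences were those of the muscle creatine kinase gene Ckm, from 3.68 ± 2.54 to 1.38 ± 1.07 TPM (log2 fold change −1.46, adjusted p = 2.24e-05 with the block, edgeR), and the fast troponin T gene Tnnt3, from 737 ± 265 to 471 ± 146 TPM (−0.65, adjusted p = 2.57e-08), each as SD with n = 4. Without the block, their adjusted p-values were 0.798 and 0.766. The 1 higher gene was Myc, named after its values were seen, at 75.6 ± 4.92 and 88.4 ± 9.34 TPM (SD, n = 4 each), with a log2 fold change of 0.21 (adjusted p = 0.0104 with the block and 0.503 without it, edgeR). Mef2c was picked out by the study on these same libraries, so its direction is not independent evidence, and no test set the lists against the 7 members.

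**Figure D4:**
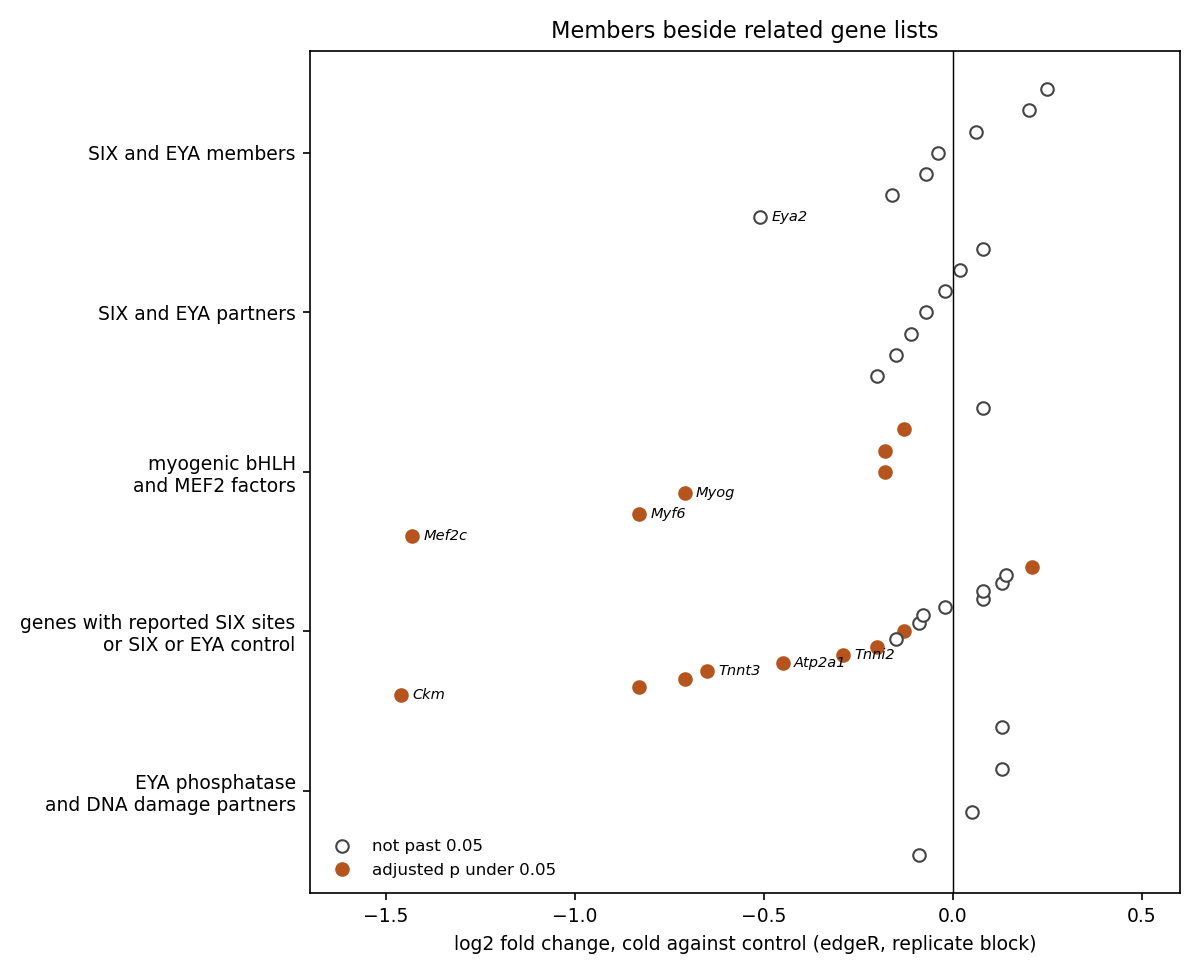
Log2 fold change of each tested gene in the cold against control from edgeR with the replicate block, for the 7 SIX-family and EYA genes and 4 related lists, filled where the adjusted p is under 0.05 and named where the change exceeds 0.25 in size, with Myf6 and Myog named in 1 of their 2 lists. No point is filled among the members, their partners or the DNA damage list. Filled are 6 of 7 bHLH and MEF2 factors and 9 of 17 genes with reported SIX-family sites or control. Myog, Myod1 and Myf6 are filled in both of these lists. In this fit 5.33% of all genes tested passed, and no test set the lists against the members.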

How the data were processed

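Poly(A) RNA of 4 control and 4 cold SC libraries was sequenced as paired-end reads. The authors deposited, per gene and library, expected counts of reads (not normalized, some with decimals), TPM scaled within each library, and a normalized count, a signal made by the authors with one factor per library. The submitters' processing notes name HISAT and HISAT2, while the counting program and genome build are not given in the sources used here, so no coordinates or sequences are printed. RefSeq held all 7 identifiers under the same symbols.

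Expected counts were rounded and fitted with edgeR 4.0.16 (R 4.3.3) after filterByExpr and TMM, with Benjamini-Hochberg adjustment over the 12506 genes tested. Standard errors were the absolute log2 fold change over the square root of F, and intervals used the t quantile of the fit. TPM was compared by exact permutation, two-sided, over the 70 arrangements of 4 against 4 libraries. DESeq2 1.42.0, limma 3.58.1 on log2 TPM, other scalings and filters, the replicate block, single libraries left out and replicates 1 and 2 or 3 and 4 alone were alternatives. DESeq2 and library totals with the block, and the block without a numbered pair, were chosen after seeing the data. The code was tested on simulated data.

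The replicate numbers come from the titles. Correlations of deviations from group means were 0.63, 0.66, 0.68 and 0.68 between libraries of the same number, 0.43 to 0.63 between different numbers of one set (1 and 2, or 3 and 4) and −0.63 to −0.57 across sets. All 4 same-number values being positive, the numbers were used as a block. Different numbers of one set gave positive values too, so the sign alone does not show pairing by number. For 3 and 4 the same-number values were the larger (0.68 against 0.48 and 0.43), while 1 and 2 are hardly set apart from each other. The study calls the libraries biological replicates and does not say whether each came from a separate animal. If libraries of a group do not come from separate animals, p-values measure only the spread between these libraries, which may be technical. Replicates of a group differed by more than sampling noise (chi-square per gene of 2.46 or more), so none was counted as a copy.

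The members and lists were chosen with earlier results of these data known. Named are the 7 members, up to 4 genes per related list with the largest change at a mean of at least 1 TPM, marker genes, and the 3 genes most alike in level to each member of at least 1 TPM. A listed gene of the wider family is not reported here.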

Additional observations from a re-analysis of the deposited data

Results flagged for a closer look

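Among the 7 genes, each group of 4 libraries was screened for an isolated extreme by Dixon's criterion, 14 groups in all. Cold replicate 4 of Six4, at 10.7 TPM, was isolated below the other 3 cold libraries, which lay between 13.7 and 14.2 TPM. Chance gives about 1 such value in 20 groups, or 0.7 here.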

How the results depend on the processing

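For the 7 members, 172 alternative fold changes were computed, of which 165 kept their direction and their side of an adjusted p of 0.05. The log2 fold change of Six4 turned to 0.02 and that of Eya4 to 0.03 without cold replicate 4, with ranges over the fits that leave out libraries of −0.13 to 0.02 and −0.33 to 0.03. Six5 turned to −0.12 in replicates 1 and 2 alone and ran from −0.07 to 0.14 with single libraries left out and from −0.08 to 0.17 with numbered pairs left out of the blocked fit. The count of members past the threshold was 0, and 0 to 1 with libraries left out, the 1 being Eya1 in the fit with the replicate block and without both libraries numbered 4 (0.28, adjusted p = 0.0490), where 927 genes passed, or 7.44% of those tested. Its adjusted p was 0.199 to 0.257 without each of the other pairs. Eya1 ran from 0.16 to 0.33 over 25 alternatives. Eya2 was filtered out in some fits and had 22 alternatives. The exact tests gave 0 members under 0.05 on TPM, log2 TPM and the deposited normalized counts. The causes of these shifts were not tested.

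Over all genes, the count at an adjusted p under 0.05 was 9 in the unblocked edgeR test. It was 667 with the replicate block, 142 with DESeq2, 14 with library totals, 25 with no filter, 4 with the stricter filter, 4 with limma at either pseudocount and 5 with limma and no TPM filter. It was 1442 in replicates 1 and 2 alone and 50 in replicates 3 and 4 alone. With the block, DESeq2 gave 357 and library totals 673. With single libraries left out it ran from 0 to 46, the 46 without control replicate 3. With the block it was 394, 356, 574 and 927 without the pairs numbered 1 to 4. The count that also passed a log2 fold change of 1 was 5. It was 106 with the replicate block, 66 with DESeq2, 8 with library totals, 15 with no filter, 3 with the stricter filter and 3 with limma at either pseudocount. It was 183 and 28 in the sets alone, 86 and 105 with the block in DESeq2 and with library totals, and 0 to 34 with single libraries left out, the 34 without control replicate 3. With the block it was 88, 101, 135 and 117 without the pairs numbered 1 to 4. Of the 32 tested genes of the related lists, 0 passed without and 13 with the replicate block, against 0.0720% and 5.33% of all genes tested. The block changed no call of a member, but lowered the edgeR adjusted p of Eya1 from 0.785 to 0.0623 and of Eya4 from 0.999 to 0.114. Eya2 and Six5 are limited by counts of 6 to 35 reads.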
